A study of Mus musculus with 8 samples.

Results

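The surfactant proteins and the other genes that define alveolar type II (AT2) cells were followed in mouse lung RNA across a model of chronic obstructive pulmonary disease (COPD) and a herbal diet. Sftpa1, Sftpb, Sftpc, Sftpd, Abca3, Lamp3, Napsa, Lpcat1, Slc34a2 and Etv5 were taken by name, 10 of the 52636 genes in the count files, and all 10 were among the 20546 genes with enough reads to be tested. The 8 libraries came from whole lung of male wild type C57BL/6 mice, with 2 libraries in each of 4 groups. PBS was given to control mice, whereas the COPD mice model (COPD mice) was made with porcine pancreatic elastase (PPE) followed by lipopolysaccharide (LPS). Both were fed either a control diet or the same diet with 2% TJ-41 (hochuekkito), a Japanese kampo extract, so the groups were control mice on control diet or TJ-41 and COPD mice on control diet or TJ-41. Feeding began at 8 weeks of age, with PPE (or PBS) at 10 weeks and LPS (or PBS) from 12 weeks. The day and hour of lung collection and the number of mice behind each library are not given in the sources used here.

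AT2 cells are cuboidal cells of the alveolar wall that make, store, secrete and take back pulmonary surfactant, the film of phospholipid and protein that lowers surface tension and keeps alveoli open at end expiration. Surfactant lipid and the hydrophobic proteins SP-B and SP-C are packed into lamellar bodies, while the hydrophilic collectins SP-A and SP-D bind microbes and help regulate surfactant clearance. AT2 cells are also the progenitors of alveolar type I cells. Transcription factors of the NKX2-1, FOXA and C/EBP families are known regulators of surfactant genes, and FGF receptor signalling acts on AT2 cells partly through ETV5.

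RefSeq promoter sequence of build GRCm38.p6 was matched for 7 of the 10 genes, and Sftpc, Sftpd and Napsa were not matched. Promoters are shown, as the 250 bases before the annotated start read 5′ to 3′ on the gene's strand, for Sftpb, Lpcat1, Slc34a2 and Etv5, whose TJ-41 libraries lay below the control diet libraries in control mice and above them in COPD mice, and for Sftpa1, whose libraries overlapped between the diets. The RefSeq start of Slc34a2 is an internal start, inside the longer gene that GENCODE places at chr5:53038081-53071664. Capitals mark matches to the motifs searched on both strands.
Sftpb (chr6:72304360-72304609, plus strand): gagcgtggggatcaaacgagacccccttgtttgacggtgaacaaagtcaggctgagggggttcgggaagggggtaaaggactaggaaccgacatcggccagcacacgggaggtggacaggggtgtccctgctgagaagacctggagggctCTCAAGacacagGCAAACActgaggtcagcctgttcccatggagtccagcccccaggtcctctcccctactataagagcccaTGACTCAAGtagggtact
Lpcat1 (chr13:73466981-73467230, plus strand): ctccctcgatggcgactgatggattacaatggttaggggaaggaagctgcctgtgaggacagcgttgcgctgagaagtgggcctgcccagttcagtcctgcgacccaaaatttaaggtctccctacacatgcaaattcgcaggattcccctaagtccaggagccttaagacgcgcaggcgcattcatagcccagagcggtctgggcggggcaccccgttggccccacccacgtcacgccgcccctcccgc
Slc34a2 (chr5:53049103-53049352, plus strand): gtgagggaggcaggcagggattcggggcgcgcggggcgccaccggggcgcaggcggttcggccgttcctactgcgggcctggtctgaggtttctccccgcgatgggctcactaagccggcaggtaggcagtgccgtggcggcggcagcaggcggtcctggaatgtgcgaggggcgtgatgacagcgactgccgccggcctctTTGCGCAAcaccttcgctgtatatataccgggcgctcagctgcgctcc
Etv5 (chr16:22439571-22439820, minus strand): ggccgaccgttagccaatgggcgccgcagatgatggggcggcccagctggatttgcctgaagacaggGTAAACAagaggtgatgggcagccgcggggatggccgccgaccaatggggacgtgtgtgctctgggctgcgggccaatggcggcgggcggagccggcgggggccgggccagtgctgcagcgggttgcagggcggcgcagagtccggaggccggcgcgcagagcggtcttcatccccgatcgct
Sftpa1 (chr14:41131538-41131787, plus strand): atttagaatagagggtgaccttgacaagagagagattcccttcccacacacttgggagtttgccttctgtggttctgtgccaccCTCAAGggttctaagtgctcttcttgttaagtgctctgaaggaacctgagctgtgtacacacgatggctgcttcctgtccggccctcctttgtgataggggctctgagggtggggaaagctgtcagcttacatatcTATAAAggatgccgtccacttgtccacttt
The NKX2-1 core CTCAAG was found in Sftpb, 100 and 15 bases before the start, and in Sftpa1, 166 bases before it, against 13.3% of all 32851 promoters of this length. The FOXA motif TGTTTNC was found in Sftpb, Etv5 and Lamp3, and in 17.8% of all promoters. In Sftpb the match read GCAAACA, on the other strand. The C/EBP motif TTGCNNAA was found in Slc34a2, 48 bases before the start, and in 9.56% of all promoters. The AP-1 motif TGANTCA was found in Sftpb, 18 bases before the start, where it overlaps the nearer CTCAAG, and in 6.75% of all promoters. The TATA box TATAAA was found in Sftpa1, 30 bases before the start, and in 12.4% of all promoters. None of the motifs was found in the windows of Lpcat1, Abca3 or the second annotated start of Etv5. A match describes the letters in the window and is not evidence of binding.

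The libraries held 18767295 to 20888042 counts, and the smallest count of any of the 10 genes in any library was 1811, for Etv5. Levels are given as CPM, read counts scaled to library size with TMM factors. Together the 10 genes took 1.91% to 3.70% of the counts of a library, and Sftpc alone took 0.931% to 2.42%. Per kilobase of exon, Sftpc had the highest level at 13800 CPM per kb, followed by Sftpa1 at 1420.2, Sftpb at 1395, Slc34a2 at 529.9 (CPM per kb, means of 8 libraries) and Sftpd at 366. Lamp3 stood at 248, Lpcat1 at 111, Napsa at 97.9, Abca3 at 41.004 and Etv5 at 32.0 CPM per kb. On this scale the 10 genes ranked between 31 and 1976 among the 20546 genes tested, so transcripts of AT2 cells were abundant in every library. In whole lung RNA, fewer AT2 cells and less RNA of a gene in each AT2 cell cannot be told apart.

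One library stood apart. The replicates of COPD mice on control diet had log2 differences with an SD over genes of 0.798, while this SD lay between 0.394 and 0.469 elsewhere. In replicate 2 of that group the deviation from the mean of the other 7 libraries followed exon length. Over all genes of at least 10 CPM, its median log2 deviation was 0.38 for exon lengths under 1 kb and 0.37 from 1 to 2 kb, and it was -0.09 from 5 to 8 kb and -0.29 above 8 kb. Among the 10 genes, Sftpc, the shortest at 1034 bases of exon, deviated by 1.06 and Sftpd (2417 bases) by 0.91, whereas Abca3, the longest at 9374 bases, deviated by -1.03. Each of them lay further from 0 than the median of all genes in its length range (0.37, 0.32 and -0.29). Genes of lengths near that of Sftpd deviated less, Sftpb (1968 bases) by 0.26, Napsa (2660 bases) by 0.12 and Sftpa1 (2860 bases) by 0.30. A weaker slope of the opposite sign was present in replicate 2 of control mice on TJ-41, where the median over all genes was -0.25 under 1 kb and 0.21 above 8 kb and all 10 genes deviated downwards, by -0.59 for Sftpc to -0.05 for Abca3. Smaller slopes were present in other libraries, with medians from 0.24 under 1 kb to -0.12 above 8 kb in replicate 1 of control mice on control diet. They ran from -0.17 to 0.09 in replicate 2 of that group and from -0.13 to 0.08 in replicate 1 of control mice on TJ-41. After a loess correction of each library for GC content and exon length, the median log2 fold change of the 10 genes in COPD mice was 0.04 on control diet and 0.39 on TJ-41, with all 10 higher on TJ-41. On control diet 0 of the 10 had an unadjusted p under 0.05 by edgeR, as had 2197 of the 20546 genes tested. On TJ-41 it was 6 of the 10 and 1423 of the 20546. For TJ-41 against control diet the median was -0.21 in control mice and 0.18 in COPD mice, and none of the 10 was called in any comparison. The values without this correction are given below.

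**Figure D1:**
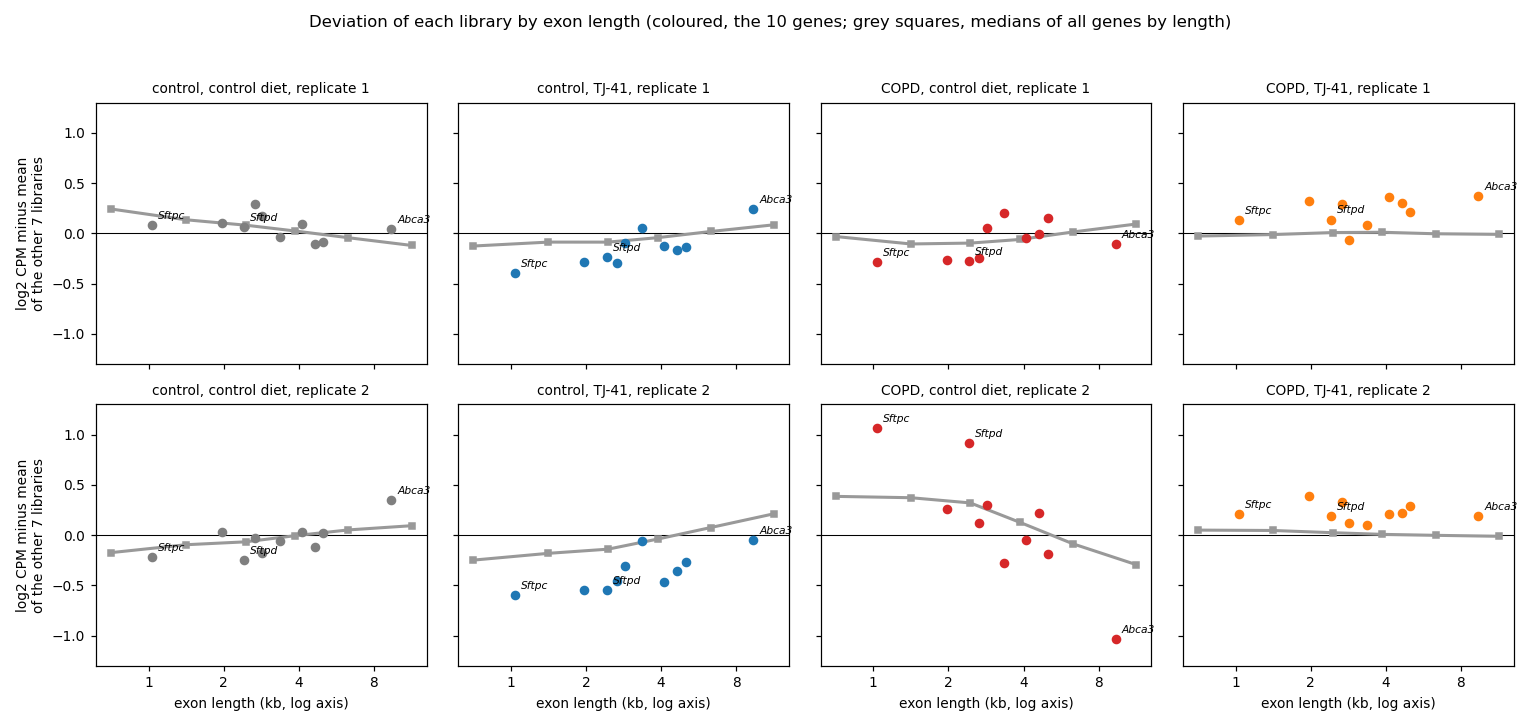
Deviation of log2 CPM in each library from the mean of the other 7, against exon length in kb on a log axis, with the 10 genes as coloured points and the medians of all genes of at least 10 CPM by length as grey squares drawn at the middle of each length range. In COPD mice on control diet, replicate 2 falls from 1.06 for Sftpc to -1.03 for Abca3, a wider range than in any other library.

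Among the hydrophobic surfactant proteins, Sftpb and Sftpc were both lowest in control mice on TJ-41. Sftpb (ENSMUSG00000056370, chr6:72304610-72314371, plus strand of GRCm38) encodes SP-B, which is required for lamellar bodies and for the surface film. It was present at 2866 and 2750.3 CPM in control mice on control diet, 2265 and 1934 on TJ-41, 2302.5 and 3162 in COPD mice on control diet, and 3274 and 3406 on TJ-41. Both libraries of COPD mice on TJ-41 were above all 6 others, and both of control mice on TJ-41 were below all 6 others. Sftpc (ENSMUSG00000022097, chr14:70520949-70524081, minus strand) encodes SP-C, a short lipopeptide largely specific to AT2 cells. Its levels were 14334 and 11952 CPM in control mice on control diet, 10703 and 9504 on TJ-41, 11472 and 25921 in COPD mice on control diet, and 14759 and 15505 on TJ-41. The highest value belonged to the library that stood apart and was 2.26 times its replicate. Without that library the highest Sftpc value was 1.63 times the lowest, against 2.73 times with it.

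The collectin genes Sftpa1 and Sftpd overlapped between most of the groups. Sftpa1 (ENSMUSG00000021789, chr14:41131782-41136452, plus strand) encodes SP-A and stood at 4492 and 3612 CPM in control mice on control diet, 3809 and 3353 on TJ-41, 4162 and 4839.6 in COPD mice on control diet, and 3874 and 4351 on TJ-41. No neighbouring groups in its order of means were free of overlap. Sftpd (ENSMUSG00000021795, chr14:41172214-41185149, minus strand) encodes SP-D and stood at 888 and 737 CPM, 743 and 614, 726 and 1487.5, and 930.1 and 958 in the same 4 groups. Its replicates in COPD mice on control diet differed by 2.05 times, far more than in the other groups. Across the 8 libraries Sftpd followed Sftpc closely (Pearson's r = 0.993 over 8 libraries, 0.978 without the library that stood apart), a description of libraries that share treatments, depth and length trends.

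The lamellar body genes did not share 1 pattern. Abca3 (ENSMUSG00000024130, chr17:24351950-24410201, plus strand) encodes the transporter that loads phospholipid into lamellar bodies. It was measured at 384 and 462 CPM in control mice on control diet, 433 and 362 on TJ-41, 349 and 199.5 in COPD mice on control diet, and 469 and 418 on TJ-41. Both libraries of COPD mice on control diet were below all others, and the lower of them was the library that stood apart. Lamp3 (ENSMUSG00000041247, chr16:19653378-19706375, minus strand), a lamellar body membrane glycoprotein that mature dendritic cells also make, had the narrowest range, with 811 and 801, 856 and 802, 939 and 701, and 874 and 883 CPM in the 4 groups. Lpcat1 (ENSMUSG00000021608, chr13:73467197-73516422, plus strand) encodes the acyltransferase that makes the disaturated phosphatidylcholine of surfactant. Its levels ran upwards from control mice on TJ-41 (461 and 409.6 CPM) through control mice on control diet (479 and 474) and COPD mice on control diet (508 and 581) to COPD mice on TJ-41 (612 and 581.5). No neighbouring groups in this order overlapped, and Lpcat1 was the 1 gene whose 4 COPD libraries were all above the 4 control libraries, a pattern that 3.35% of all genes tested showed in this direction.

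Napsa, Slc34a2 and Etv5 shared the ends of this order. Napsa (ENSMUSG00000002204, chr7:44572380-44586862, plus strand) encodes napsin A, an aspartic protease that cleaves the SP-B precursor. It was present at 306 and 251.5 CPM in control mice on control diet, 214 and 195 on TJ-41, 222 and 276 in COPD mice on control diet, and 306 and 314 on TJ-41. Its profile over the 8 libraries followed that of Sftpb, whose precursor it processes (r = 0.953, and 0.964 without the library that stood apart). Without that library it followed Sftpc more closely (r = 0.987, against 0.664 with that library). These libraries share treatments, depth and length trends. Slc34a2 (ENSMUSG00000029188, chr5:53038081-53071664, plus strand) encodes the sodium phosphate cotransporter that recovers phosphate from the alveolar space. Its values were 2507.5 and 2674 CPM, 2429.6 and 2249, 2891 and 2357, and 2998 and 3145 in the same 4 groups. Etv5 (ENSMUSG00000013089, chr16:22381309-22439719, minus strand), the ETS transcription factor downstream of FGF receptors, had the lowest level per kilobase of the 10 genes and stood at 138 and 132 CPM, 120.3 and 97.9, 126 in both replicates, and 162 and 148. For all 3 genes COPD mice on TJ-41 were highest and control mice on TJ-41 lowest, with no overlap between each of these groups and its nearest neighbour, although Napsa was separated by only 306.03 against 305.94 CPM. Slc34a2, Napsa and Abca3 are each overlapped by at least 1 gene on the opposite strand (Gm17182, Gm15396, and Gm25618 and D330041H03Rik), which had at most 161 counts in a library, and whether the counting used strand is not given in the sources used here.

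**Figure D2:**
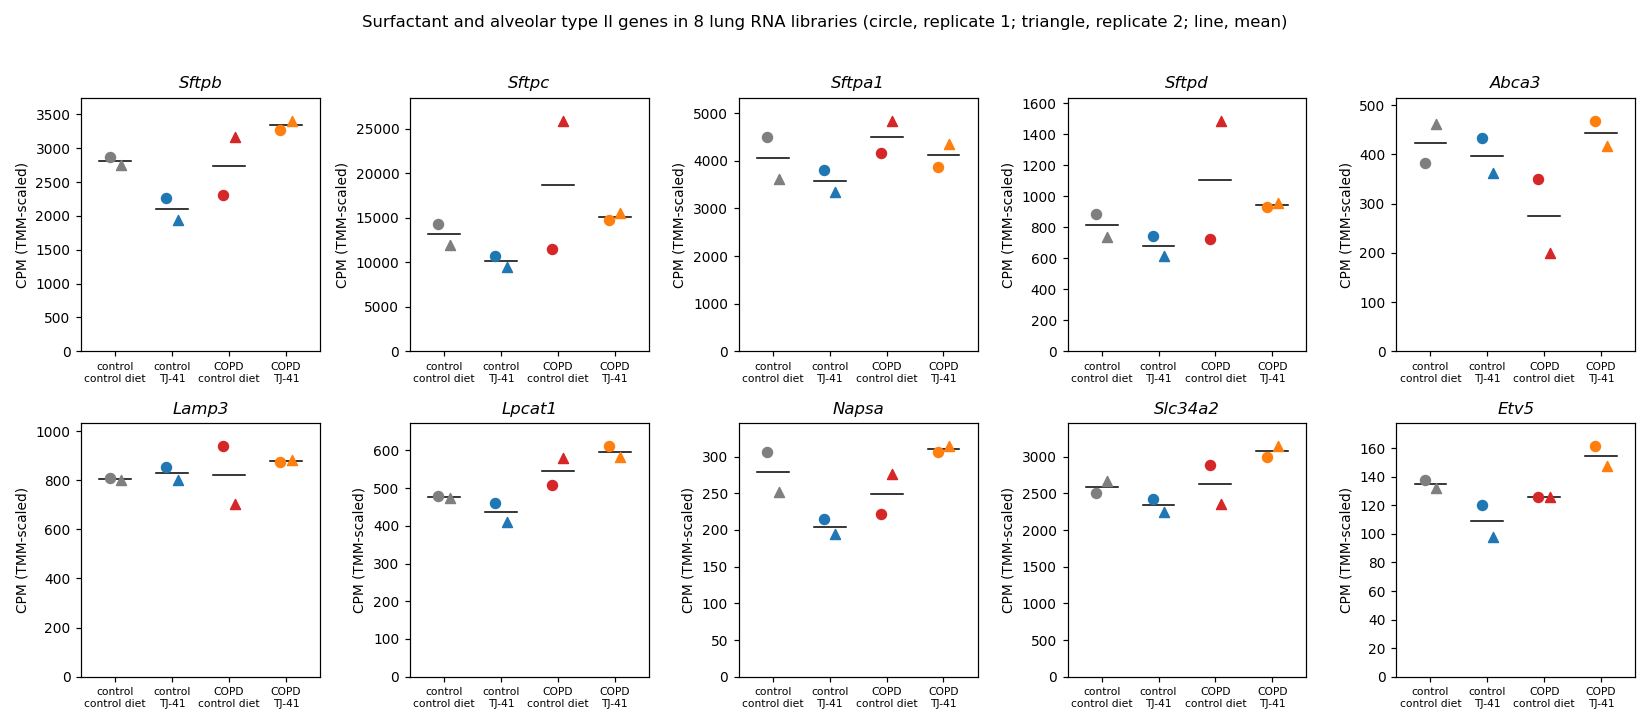
TMM-scaled CPM of each of the 10 genes (vertical axes, starting at 0) in the 4 groups, with replicate 1 as circles, replicate 2 as triangles and the group mean as a line. Sftpb, Lpcat1, Napsa, Slc34a2 and Etv5 have both libraries of COPD mice on TJ-41 above the 6 others, and the replicates of COPD mice on control diet are far apart for Sftpc, Sftpd and Abca3.

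Whether these genes differed between COPD mice and control mice was asked first on the control diet. None of the 10 was called (edgeR's quasi-likelihood test, Benjamini-Hochberg adjusted p under 0.05 and log2 fold change beyond 1), where 0.122% of all genes tested were called. In COPD mice 6 of the 10 were higher and 4 were lower, with a median log2 fold change of 0.02 against 0.0073 over all genes. The largest differences were a lower Abca3 (log2 fold change -0.62, 95% interval -1.21 to -0.03, adjusted p = 0.611 from edgeR with Benjamini-Hochberg adjustment) and higher values of Sftpc (0.51, -0.27 to 1.28) and Sftpd (0.45, -0.24 to 1.13). Abca3 was also the 1 gene of the 10 with an unadjusted p under 0.05, a level reached by 7.70% of all genes. The direction for Sftpc and Sftpd, and the size but not the direction for Abca3, rested on the library that stood apart. With that library left out, 4 of the 10 genes were higher and the median was -0.13. Without it, Sftpc had a log2 fold change of -0.19, Sftpd of -0.16 and Abca3 of -0.27, and with it as the group's 1 library the values were 0.97, 0.87 and -1.09, of which Abca3 passed both thresholds (adjusted p = 0.0105, edgeR). Its single library was then assumed to vary like those of the other groups. In the other 7 genes the fitted difference was at most 0.19 in size.

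On TJ-41, all 10 genes were higher in COPD mice than in control mice, with a median log2 fold change of 0.47 against -0.0016 over all genes. None was called by the same edgeR test, where 0.0779% of all genes were. Napsa differed by 0.60 (95% interval 0.19 to 1.01, adjusted p = 0.576 from edgeR with Benjamini-Hochberg adjustment), Sftpb by 0.67 (0.19 to 1.15, adjusted p = 0.588), Etv5 by 0.50 (0.13 to 0.87, adjusted p = 0.607) and Lpcat1 by 0.45 (0.07 to 0.83, adjusted p = 0.688). These 4 genes had an unadjusted p under 0.05, as had 6.56% of all genes. In 9 of the 10, all but Abca3, both COPD libraries were above both control libraries, which 28.5% of all genes tested showed in this direction. Leaving out 1 library at a time kept all 10 higher, with medians from 0.35 to 0.59, and the lowest came without replicate 2 of control mice on TJ-41. When the 4 libraries of this comparison were fitted alone, Napsa (adjusted p = 0.0211), Sftpb (0.0218) and Sftpc (0.0321) passed an edgeR adjusted p of 0.05, at log2 fold changes of 0.60, 0.67 and 0.58, below the fold threshold. With that fit 716 genes passed the same adjusted p, against 16 in the fit of all 8 libraries.

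Averaged over both diets, 9 of the 10 genes were higher in COPD mice, Abca3 being lower, with a median of 0.21. None was called, against 0.443% of all genes. The largest values were 0.55 for Sftpc (95% interval -0.0018 to 1.09), 0.46 for Sftpd (-0.02 to 0.95), 0.32 for Lpcat1 (0.06 to 0.59) and 0.32 for Sftpb (-0.02 to 0.65). Lpcat1 alone had an unadjusted p under 0.05, as 10.4% of all genes had, and its adjusted p was 0.379 (edgeR). Without the library that stood apart, Lamp3 and Slc34a2 joined Lpcat1 in having all COPD libraries above all control libraries, which 4.76% of all genes then did, and the log2 fold changes of Sftpc and Sftpd were 0.20 and 0.16. An exact permutation test of 4 against 4 libraries could not give a two-sided p under 0.0286, and 2 against 2 could not go under 0.333.

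Circadian clock genes were called in COPD mice, and the alveolar macrophage list had a higher sum, with as many genes lower as higher over both diets. The 15 tested genes of a circadian clock list had a summed level of 694 to 936 CPM in the control groups and 1829 to 1890.0 CPM in the COPD groups, with 7 genes called higher and 3 lower over both diets, led by Dbp (log2 fold change 3.89, adjusted p = 9.1e-06, edgeR). The 14 genes of an alveolar macrophage list summed to 968 to 1194 CPM in control mice and 1353 to 1968 CPM in COPD mice. Over both diets 7 of the 14 were higher and 7 lower (median 0.11), and on the control diet the median was -0.04. On TJ-41 it was 0.30, with 9 of 14 higher. For TJ-41 against control diet the median was -0.16 in control mice, with 11 of 14 lower, and 0.23 in COPD mice, with 11 of 14 higher. The last was 0.51 with the library that stood apart as the 1 control diet library. No macrophage gene was called, the nearest being Chil3 (1.31, adjusted p = 0.0586, edgeR). The part of clock phase and of macrophage content in the differences of the 10 genes was not tested.

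**Figure D3:**
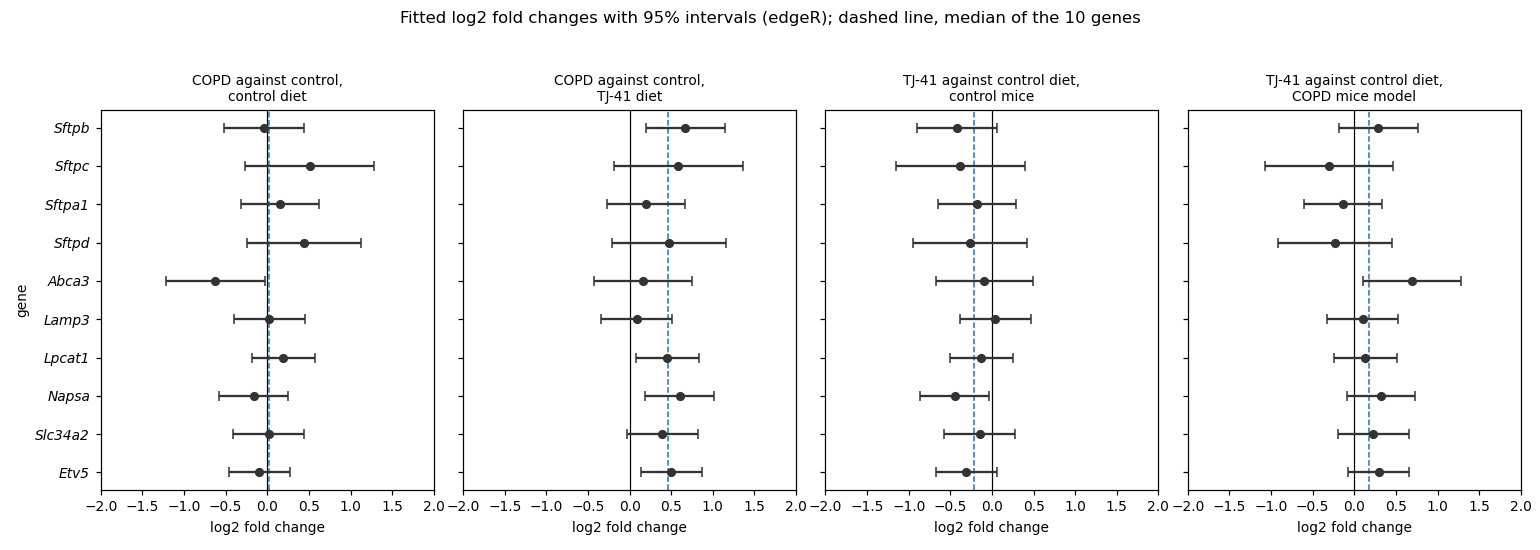
Fitted log2 fold change of each of the 10 genes with its 95% interval (bars) in 4 comparisons, with the median of the 10 genes as a dashed line and 0 as a solid line. The median is 0.02 and 0.47 for COPD mice against control mice on control diet and on TJ-41, and -0.22 and 0.18 for TJ-41 minus control diet in control mice and COPD mice.

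In control mice, 9 of the 10 genes were lower on TJ-41 than on the control diet, Lamp3 being higher by 0.04, with a median log2 fold change of -0.22. None was called, and 0% of all genes tested were called. The largest differences were -0.45 for Napsa (95% interval -0.86 to -0.03), -0.42 for Sftpb (-0.90 to 0.06), -0.38 for Sftpc (-1.15 to 0.39) and -0.31 for Etv5 (-0.68 to 0.06), each with an adjusted p of 0.996 (edgeR). Napsa alone had an unadjusted p under 0.05, as had 1.64% of all genes. In 6 genes (Sftpb, Sftpc, Napsa, Lpcat1, Slc34a2 and Etv5) both TJ-41 libraries were below both control diet libraries, a pattern that 19.1% of all genes showed in this direction. Sftpb, Sftpc, Napsa, Lpcat1 and Etv5 were also below the 6 other libraries, as were 4.58% of all genes. Without replicate 2 of control mice on TJ-41 the median was -0.11.

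In COPD mice, 7 of the 10 genes were higher on TJ-41 than on the control diet, with a median of 0.18, and Sftpa1, Sftpc and Sftpd were lower. None was called, against 0.00487% of all genes. Abca3 had the largest difference, at 0.69 (95% interval 0.10 to 1.28, adjusted p = 0.991, edgeR), and was the 1 gene with an unadjusted p under 0.05, as had 4.10% of all genes. It was 0.34 without the library that stood apart and 1.15 (adjusted p = 0.0140, edgeR) with that library as the 1 control diet library. Sftpc and Sftpd changed direction, from -0.31 and -0.23 to 0.40 and 0.38 without that library, when 8 of the 10 genes were higher and the median was 0.32. Sftpb (0.29), Napsa (0.32) and Etv5 (0.29) were higher, with intervals that included 0. In Sftpb, Abca3, Napsa, Lpcat1, Slc34a2 and Etv5 both TJ-41 libraries were above both control diet libraries, in Lpcat1 by 581.5 against 581 CPM, a pattern that 14.1% of all genes showed in this direction.

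The diet difference was set against itself in the 2 models. For Sftpb, Napsa, Lpcat1, Slc34a2 and Etv5, TJ-41 libraries were below the control diet libraries in control mice and above them in COPD mice without overlap, as for 2.57% of all genes tested, and in the same 5 genes COPD mice on TJ-41 were above all 6 other libraries, as for 3.55% of all genes. The test of the difference between the diet effects called none of the 10, as it called 0% of all genes. The largest differences were 0.78 for Abca3 (95% interval -0.05 to 1.61), 0.76 for Napsa (0.18 to 1.35), 0.71 for Sftpb (0.03 to 1.38) and 0.60 for Etv5 (0.08 to 1.12), with adjusted p = 0.999 for each (edgeR). Napsa, Sftpb and Etv5 had an unadjusted p under 0.05, as had 3.27% of all genes. All 10 values were above 0, and the median was 0.32. With 1 library left out the median ran from 0.26, without replicate 2 of control mice on TJ-41, to 0.53, without the library that stood apart, and 7 to 10 of the 10 values were above 0. No gene had an unadjusted p under 0.05 without replicate 1 of control mice on control diet or without replicate 2 of control mice or COPD mice on TJ-41. The comparisons share libraries, since control mice on TJ-41 enter both the lower diet difference and the higher COPD difference on TJ-41. Over both models together TJ-41 left a median of -0.04, with 4 of the 10 genes higher, no gene called and none with an unadjusted p under 0.05, where 0% and 2.48% of all genes were.

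Across the 7 comparisons DESeq2 also called 0 of the 10 genes, as did edgeR's exact test in the 4 comparisons of 2 groups. At an unadjusted p under 0.05 DESeq2 found 1 gene on the control diet and 5 on TJ-41 for COPD mice, 4 over both diets, 1 for TJ-41 in each model, 0 over both models and 4 for the difference between the diet effects.

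The order of the group means was common to most of the genes at its lower end. Control mice on TJ-41 were lowest for 8 of the 10 genes, all but Abca3 and Lamp3. COPD mice on TJ-41 were highest for 7 genes, and for Sftpa1, Sftpc and Sftpd COPD mice on control diet were highest with overlapping libraries. Averaged over the 10 genes, the centred log2 level was -0.13 and -0.32 in control mice on TJ-41, 0.05 and -0.04 in control mice on control diet, -0.07 and 0.12 in COPD mice on control diet, and 0.19 and 0.20 on TJ-41. Of the genes of at least 10 CPM outside the 10, Bckdha (r = 0.975 over 8 libraries), Gm2606 (0.971), Efna1 (0.969), Tkt (0.967) and Pex14 (0.966) were most like this average. Most like Sftpc alone were Wbp2 (0.995), Hes6 (0.995), Aldoa (0.992), Cenpx (0.992) and Gm12411 (0.992). These were the closest of 11863 genes compared, over libraries that share treatments and length trends.

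Transcription factors of AT2 cells, of which 9 of 10 listed were tested, had no called member in either COPD comparison or either diet comparison. Their median log2 fold change in COPD mice was 0.10 on the control diet and 0.31 on TJ-41, with 7 and 8 of 9 higher. Their control diet median was 0.23 with the library that stood apart as the group's 1 library, so its size depended on that library. Nkx2-1, the master regulator of lung epithelium, had the highest CPM of them, at 149 and 141 CPM in control mice on control diet, 118 and 141 on TJ-41, 156 and 283 in COPD mice on control diet, and 161 and 159 on TJ-41. Its difference over both diets was 0.45, with the value of 283 in the library that stood apart, and 0.21 without that library. Foxa1, a pioneer factor of lung endoderm, had the lowest value in the list over both diets (-0.10). Neither difference passed the test.

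Genes of surfactant lipid synthesis and transport, 18 tested, had medians of 0.05 and 0.15 in COPD mice on control diet and on TJ-41, with 11 of 18 higher in each and none called. Scd1, which desaturates fatty acids, had the highest CPM of them and differed by -0.04 over both diets, Fabp5, a fatty acid binding protein, had the highest value at 0.71 (adjusted p = 0.150, edgeR) and Atp8a1, a phospholipid flippase, the lowest at -0.45. Genes of surfactant protein processing, secretion and turnover, 17 tested, had medians of 0.01 and 0.09 with none called. Adgrf5, a receptor that restrains surfactant pool size, had the highest CPM and differed by -0.20, and the extremes were 0.62 for P2ry2, the ATP receptor that triggers lamellar body secretion, and -0.31 for the membrane fusion gene Snap23. The FGF receptor and ERK response genes, 13 tested of 14 listed, had medians of 0.02 and -0.04. Fgf10, a ligand of the receptor on AT2 cells, was the lowest of them at -0.65 (adjusted p = 0.0903, edgeR), with all 4 COPD libraries between 20.1 and 22.6 CPM and the control libraries between 30.3 and 41.3 CPM. Without the library that stood apart Fgf10 differed by -0.66 (adjusted p = 0.0268, edgeR), below the fold threshold. Of the same list, Spry2 was the highest at 0.27 and Fgf1, the most abundant, differed by -0.17. None of these 3 lists had a called gene in any of the 4 comparisons.

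Other AT2 markers were mixed in direction, with 13 of 23 higher in COPD mice on control diet and 18 of 23 on TJ-41, and medians of 0.07 and 0.25. In control mice 19 of the 23 were lower on TJ-41 (median -0.14), and in COPD mice 15 of the 23 were lower on TJ-41 (median -0.07), where 7 of the 10 surfactant and AT2 genes were higher. The median of the 23 in COPD mice was -0.14 with the library that stood apart as the 1 control diet library, so its size depended on that library. None was called. Lyz2, a lysozyme that macrophages also make and whose reads may be shared with its paralog Lyz1, had the highest CPM and differed by 0.38 over both diets. Cbr2, a carbonyl reductase also found in club cells, had the highest value (0.70, adjusted p = 0.188, edgeR) and Chia1, a chitinase, the lowest (-0.87, adjusted p = 0.196). A list of 10 genes of activated AT2 cells, which includes Sftpd, had medians of 2.18 on the control diet and 0.99 on TJ-41 in COPD mice. For TJ-41 against control diet in COPD mice all 10 genes of this list were lower (median -0.86, and -1.56 with the library that stood apart as the 1 control diet library). Of these, Ccl20, a chemokine, was called on the control diet (log2 fold change 3.18, adjusted p = 0.0465) and over both diets (2.03, adjusted p = 0.0272, edgeR). Without the library that stood apart the median of this list on the control diet was 0.54, with 7 of 10 higher, and Ccl20 was still called, at 2.56 (adjusted p = 0.0124) and 1.72 (adjusted p = 0.0052, edgeR). The acute phase gene Saa3 had the highest value over both diets (2.52, adjusted p = 0.199), resting on 57.8 CPM in the library that stood apart against at most 7.72 CPM elsewhere, and Cxcl5, a neutrophil chemokine, had the lowest (-1.15). Saa3 differed by 1.08 without that library (adjusted p = 0.0953, edgeR).

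Markers of other cells varied between the groups. Alveolar type I genes had medians of -0.10 and -0.18 in COPD mice on the 2 diets, with Ager at 0.20, Pdpn at 0.32 and Col4a3 at -0.35 over both diets, and summed to 11127 to 11659 CPM in control mice on TJ-41 and 10261 to 10687 CPM in COPD mice on TJ-41. Their control diet median was -0.045 with the library that stood apart as the group's 1 library, so its size depended on that library. Endothelial genes had medians of -0.12 and -0.28, with Ptprb at -0.12, Tie1 at 0.09 and Ednrb at -0.62, and their sums on TJ-41 were 6581 to 7066 CPM in control mice and 5118 to 5698 CPM in COPD mice. Club and airway secretory genes ranged from -0.30 for Scgb3a2 to 2.06 for Reg3g, the antimicrobial lectin that was called over both diets (adjusted p = 0.0342, edgeR, and 1.68 without the library that stood apart, adjusted p = 0.00464), with -0.17 for Scgb1a1, and summed to 35163 CPM in the library that stood apart against 15686 CPM in its replicate. Heart and pulmonary vein muscle genes had a median of -1.12 for TJ-41 in COPD mice, with 9 of 10 at an unadjusted p under 0.05 (4.10% of all genes), none called and summed levels of 278 to 347 CPM on TJ-41 against 572 to 729 CPM on the control diet. Without the library that stood apart this median was -0.92. Over both diets Myh6, the cardiac myosin heavy chain with the highest CPM of this list, differed by -0.02 in COPD mice, Nppa, the atrial natriuretic peptide gene, by 1.31 (adjusted p = 0.508) and the myosin light chain gene Myl3 by -1.52 (adjusted p = 0.346, edgeR). Medians over both diets were 0.22 for pan-epithelial genes (Cldn18 0.26, Elf3 0.50, Cldn7 -0.06), 0.12 for transitional alveolar epithelium (Krt7 0.17, Cldn4 0.42, Itgb6 -0.63), -0.04 for leukocytes (Ptprc -0.26, Cd3g 0.64, Ms4a1 -0.68) and 0.67 for glucocorticoid response (Lcn2 1.75, Pdk4 -0.36). With the library that stood apart as its group's 1 library they were 0.36, 0.32, -0.08 and 0.90. For TJ-41 in COPD mice all 10 pan-epithelial genes (median -0.22), all 12 transitional genes (-0.23) and 10 of 11 club genes (-0.38) were lower. With that library as the 1 control diet library these medians were -0.58, -0.65 and -0.65. In control mice 7 of 10, 12 of 12 and 4 of 11 were lower on TJ-41 (-0.06, -0.33 and 0.04). Among the macrophage genes Siglecf was lowest at -1.19. The part of these cell types in the values of the 10 genes was not tested.

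**Figure D4:**
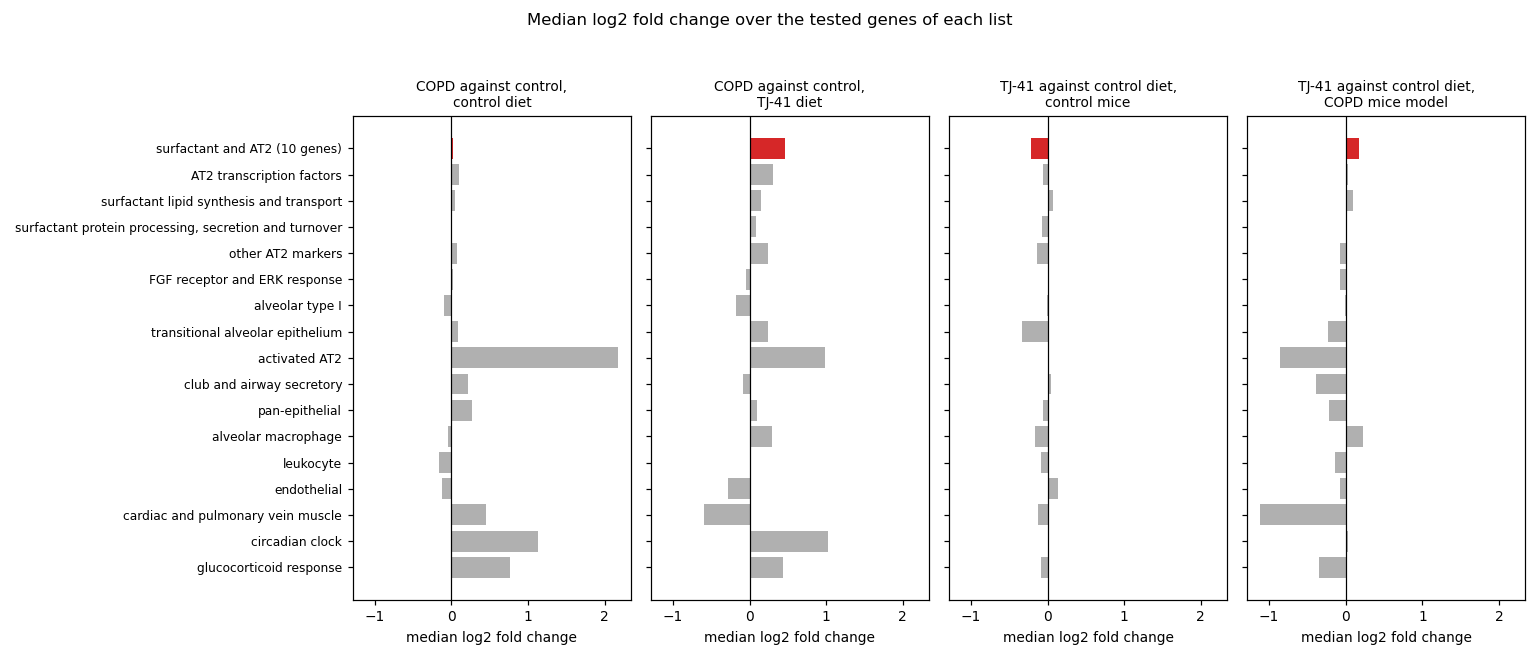
Median log2 fold change (horizontal axes) over the tested genes of each list in 4 comparisons, with the 10 surfactant and AT2 genes in red. Their median is 0.47 for COPD mice on TJ-41 and -0.22 for TJ-41 in control mice, while the activated AT2 list reaches 2.18 on the control diet, or 0.54 without the library that stood apart.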

How the data were processed

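Total RNA from mouse lung was sequenced in 8 libraries, and the authors deposited raw read counts, whole numbers for each Ensembl gene. The submitters' processing notes name HISAT2, edgeR and mm10, and the study's methods name CLC Genomics Workbench and edgeR. The counting program, strand setting and treatment of multi-mapping reads are not given in the sources used here. Groups and replicate numbers came from the sample labels, which write the diet as TJ4 or TJ41, and both were read as TJ-41. Nothing says that replicates came from separate mice, so p-values measure the spread between these libraries, which may be technical.

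Of 52636 gene identifiers, 52489 were matched to names, coordinates and exon lengths in GENCODE release M21 (GRCm38). They were tested in R 4.3.3 with edgeR 4.0.16, using filterByExpr (minimum count 10, minimum total 15), TMM scaling and its quasi-likelihood fit to all 8 libraries (4 residual degrees of freedom, common biological coefficient of variation 0.208), with Benjamini-Hochberg adjustment over 20546 genes. Genes were called at an adjusted p under 0.05 and a log2 fold change beyond 1. Intervals of 95% used the standard error from the F statistic. A gene at 0 could have had up to 3 counts, or 0.153 to 0.162 CPM in these libraries, for counting error only. Alternatives were DESeq2 1.42.0, edgeR's exact test, other scalings and filters, only the libraries compared, a replicate block, a loess correction for GC content and length (span 0.5), the adjusted p alone, and leaving out each library. Values of the lists without the library that stood apart were added after seeing the data. Steps were tested on simulated data.

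The 10 genes and the 16 other lists, 1 of whose genes had no match, were chosen with earlier results of these data known. Besides the 10, the genes named from a list were any that were called and those with the highest level and the most positive and most negative log2 fold change for COPD mice over both diets. Clock genes called besides Dbp were counted only. The value of 1 gene that this rule names is not reported here.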

Additional observations from a re-analysis of the deposited data

Results flagged for a closer look

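For 5 genes, both libraries on TJ-41 lay below both libraries on the control diet in control mice and above them in COPD mice. The diet effect in COPD mice minus that in control mice, in log2 units, was 0.71 for Sftpb, 0.76 for Napsa, 0.26 for Lpcat1, 0.37 for Slc34a2 and 0.60 for Etv5. The test of this difference did not pass for any of them (Benjamini-Hochberg adjusted p = 0.999 for each, by the quasi-likelihood test of edgeR). Over alternatives the smallest adjusted p was 0.103 for Napsa and 0.112 for Sftpb. The pattern was present in 2.57% of all genes tested. No group has more than 2 libraries, so single libraries were not tested as outliers.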

How the results depend on the processing

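The 10 genes were refitted 1040 times over the comparisons and alternatives. In 992 refits a gene kept its direction and its side of the thresholds, in 46 an uncalled value changed sign, among 24 of 70 values of at most 0.51 in size, and in 2 it passed the thresholds. Both were Abca3 without replicate 1 of COPD mice on control diet, so the number of the 10 genes called ranged from 0 to 1 with 1 library left out, for COPD mice on control diet (Abca3 -1.09) and for TJ-41 in COPD mice (Abca3 1.15). Fitting only the libraries compared and using the adjusted p alone, chosen after seeing the data, gave 3 genes for COPD mice on TJ-41. At the adjusted p alone, leaving out replicate 1 of COPD mice on control diet gave 3 genes for COPD mice on control diet (Sftpc, Sftpd and Abca3), 5 over both diets (those 3, Sftpb and Lpcat1), 1 for TJ-41 in COPD mice and 2 over both models (Sftpc and Abca3), with the library that stood apart as the group's 1 library. The members' median stayed above 0 for COPD mice on TJ-41 (0.35 to 0.59) and over both diets (0.17 to 0.28), and below 0 for TJ-41 in control mice (-0.35 to -0.11), and it changed sign for COPD mice on control diet (-0.13 to 0.07) and for TJ-41 over both models (-0.10 to 0.02). No pairing of libraries by replicate number was seen (correlations of replicate differences between groups of -0.23 to 0.11). Each group gives a single replicate difference, so these correlations cannot show that no pairing existed. With the replicate block 0 of the 10 genes were called in each comparison. Counts of all genes called were unstable. They were 25 for COPD mice on control diet, 171 by DESeq2, 210 by the exact test, 147 with all genes of at least 1 count and 3 to 1343 without 1 library. On TJ-41 they were 16, 125 by DESeq2, 137 by the exact test, 89 with all genes, 28 with the GC content and length correction, 248 with only the libraries compared and 2 to 36 without 1 library. Over both diets they were 91, 245 by DESeq2, 278 with all genes and 15 to 873 without 1 library. For TJ-41 they were 0 in control mice, 1 in COPD mice and 0 over both models, against 10, 12 and 5 by DESeq2, up to 728 without 1 library in COPD mice and up to 228 over both models. For the difference between the diet effects they were 0, 17 by DESeq2 and up to 14 without 1 library. The causes were not tested. With 2 libraries a group, replicate spread rather than depth limited the intervals of single genes.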
